A study of Mus musculus with 6 samples.

Results

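The SR proteins, the hnRNPs and the CLK kinases, which set how exons are joined, were examined in RNA of sorted mouse Treg cells with and without O-GlcNAc transferase (OGT). The members are the genes whose symbol begins with Srsf and a number or with Hnrnp, the genes *Clk1* to *Clk4*, and *Tra2a*, *Tra2b*, *Srrm1* and *Srrm2*. They are 39 of the 24420 genes in the count table: 11 SR proteins, 4 SR-related proteins, 4 CLK kinases and 20 hnRNPs. The older symbol *Hnrpll* is also in the rule, and the table lists that gene as *Hnrnpll*. The cells were YFP+ Treg cells of female C57BL/6 mice, pre-selected on CD4 with beads before the YFP sort. The paper's RNA-seq methods name no tissue, and its general Treg purification used lymph nodes and spleen. The 3 OGT-sufficient libraries came from Foxp3YFP-Cre/wt *Ogt* wt/fl mice and the 3 OGT-deficient libraries from Foxp3YFP-Cre/wt *Ogt* fl/fl mice. Every mouse of both groups therefore carried the YFP-Cre fusion, which is driven by the *Foxp3* locus on a single X chromosome, and at least 1 floxed *Ogt* allele. Which X chromosome carried the floxed allele in the *Ogt* wt/fl females is not given in the sources used here. The labels give no age, and the general statement of the study's methods puts such mice at 6 to 12 weeks. The females also hold YFP- Treg cells, which were not sorted. The labels number the libraries within a group without stating that each is a separate mouse, so p-values measure the spread between these libraries.

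SR proteins carry an RNA-recognition motif and a tail rich in arginine and serine, and they usually bind exonic enhancers and promote the use of the nearby splice sites. The hnRNPs coat nascent RNA through other RNA-binding domains, and many of them repress exons. The CLK kinases phosphorylate the tails of SR proteins in the nucleus and release them from nuclear speckles. Several members keep their own level in check by including an exon with a premature stop codon, or keeping an intron, in their own transcripts. OGT attaches N-acetylglucosamine to serines and threonines of many nuclear proteins, RNA-binding proteins among them. The comparison of the 2 genotypes here asks whether the transcripts of this machinery differ in amount. A count per gene does not separate the isoforms, so splicing itself was not measured.

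The libraries held between 3375454 counts, in OGT-sufficient replicate 3, and 4103552 counts, in OGT-deficient replicate 3. Levels are in CPM, counts scaled by the library sizes of edgeR's TMM method. The targeted gene *Ogt* was at 150, 170 and 251 CPM in OGT-sufficient replicates 1, 2 and 3, and at 84, 67 and 96 CPM in OGT-deficient replicates 1, 2 and 3. Every OGT-deficient library lay below every OGT-sufficient library. The log2 fold change of *Ogt* was -1.21 with a standard error (SE) of 0.21, and -0.94 without OGT-sufficient replicate 3. Its adjusted p was 0.191 in edgeR's quasi-likelihood test and ran from 1.62e-05 to 0.764 across the other settings. OGT-sufficient replicate 3 stood apart. It had a count for 18346 genes against 14412 to 15197 in the other 5 libraries, and for 374 of 1463 olfactory and vomeronasal receptor genes (25.6%) against 1.23% to 4.58% elsewhere. All 8 Treg markers were detected, *Foxp3* with 719 to 1116 counts and *Il2ra* with 1247 to 2523. The summed level of the 8 Treg markers was lowest in that library, at 2300 CPM against 3040 to 3490. The summed levels of 7 neutrophil, 7 B-cell and 5 erythroid markers were highest there, at 313, 312 and 842 CPM against at most 48.2, 151 and 476 in the others. The sum of 12 macrophage markers was 4530, 4060 and 2130 CPM in OGT-sufficient replicates 1, 2 and 3. In OGT-deficient replicates 1, 2 and 3 it was 1510, 5640 and 6640 CPM. It was above the Treg marker sum in every library but OGT-sufficient replicate 3 and OGT-deficient replicate 1. Levels of the members are those of the whole library, and the share from other cells was not measured. The 5 markers of CD8 T and NK cells summed to between 13.3 and 28.5 CPM. None of these markers was at 0 in all libraries. In bulk RNA of a sort, fewer cells of a type and less RNA per cell cannot be told apart. Counts of calls, medians and intervals of the members, and the fold changes this library moved most, are therefore also given without OGT-sufficient replicate 3, and the plot of fold changes shows every tested member both ways.

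No member passed the test between the genotypes. Of the 39 members, 38 had enough counts, and 0 of the 38 reached an unadjusted p of 0.05 in edgeR's quasi-likelihood test, where 7.1% of all 10949 genes tested did. DESeq2, which called 2.55% of all genes at that threshold, and edgeR's exact test, which called 6.38%, also gave 0 members. Without a low-count filter there were 2, *Hnrnpa3* and *Hnrnph1*, against 6.13% of all genes. After adjustment over all genes, 0 members and 0.0274% of all genes passed an FDR of 0.1, and the lowest adjusted p of a member was 0.713. The estimates were above 0 for 11 members and below 0 for 27, with a median log2 fold change of -0.10 against -0.02 over all genes. Without OGT-sufficient replicate 3 the median was 0.03 and 23 of the 38 estimates were above 0. The median was also closer to 0 without OGT-deficient replicate 1, at -0.08, without OGT-deficient replicate 2, at -0.02, and without OGT-deficient replicate 3, at -0.05. Leaving out a library gave up to 4 members at an unadjusted p of 0.05. They were *Srsf10*, *Clk3*, *Hnrnpa3* and *Hnrnph1* without OGT-sufficient replicate 1 (7.37% of all genes) and *Hnrnph1* without OGT-sufficient replicate 2 (7.91%). They were *Hnrnpa3* and *Hnrnpdl* without OGT-sufficient replicate 3 (6.92%), and *Hnrnpa3* and *Hnrnpll* without OGT-deficient replicate 3 (6.64%). Without OGT-deficient replicate 1 (7.18%) or replicate 2 (4.13%) there were 0. *Srsf12*, whose product antagonises other SR proteins, was not tested, with 9, 10 and 5 counts in the OGT-sufficient and 3, 9 and 4 counts in the OGT-deficient libraries.

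**Figure D1:**
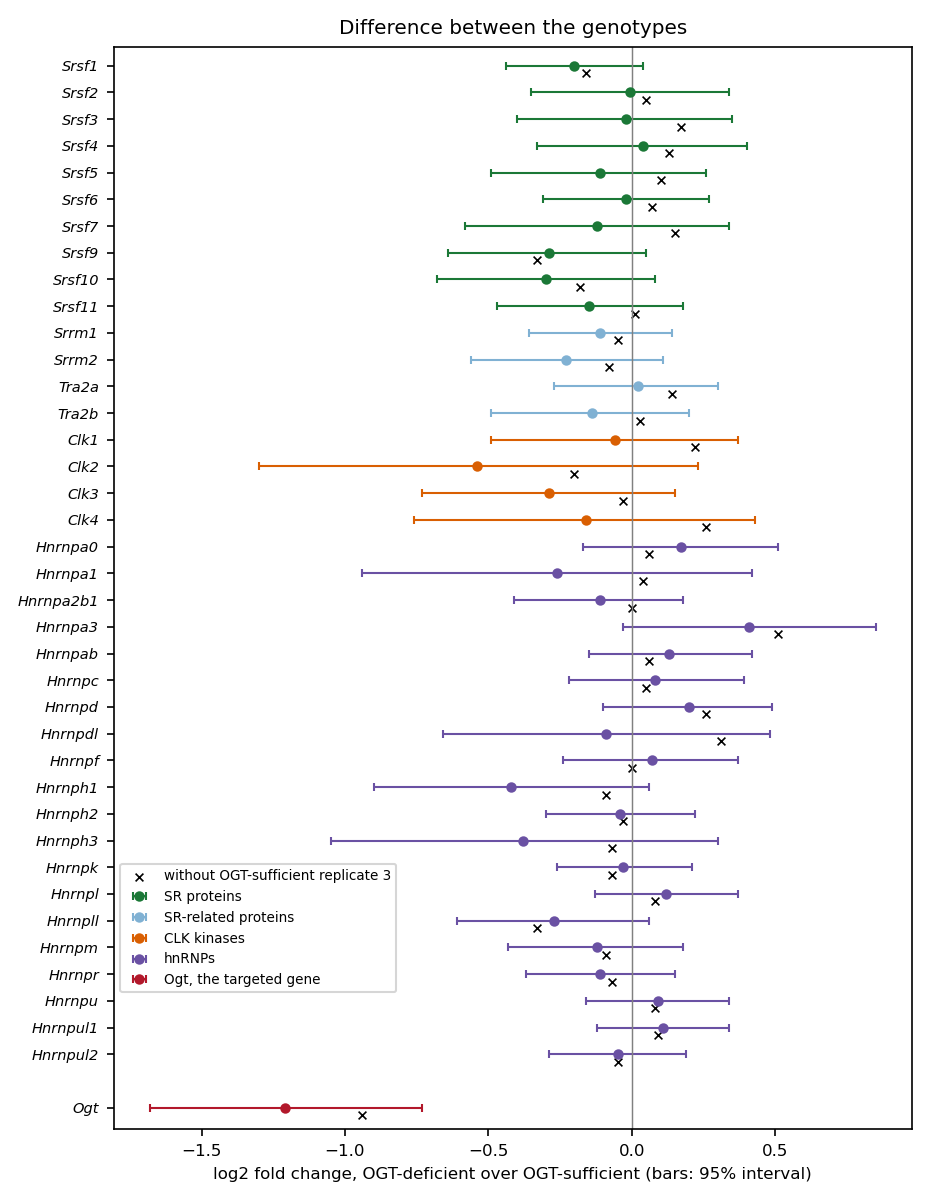
Log2 fold change of each tested member and of Ogt, OGT-deficient over OGT-sufficient, with the 95% interval from edgeR's quasi-likelihood fit (3 libraries a group), and the estimate without OGT-sufficient replicate 3 as a cross. The intervals of all 38 members include 0, and the interval of Ogt, from -1.68 to -0.73, does not.

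The intervals bound differences in the level of the whole library. The share of RNA from other cells was not measured, so they do not bound a change within the Treg cells. For 36 of the 38 members the 95% interval of the fold between the genotypes lay within 2-fold in either direction, against 77.8% of all genes tested. It lay within 1.5-fold for 27 members (42.6% of all genes) and within 1.25-fold for 5 (4.71%), namely *Srsf6*, *Tra2a*, *Hnrnph2*, *Hnrnpk* and *Hnrnpul2*. By family, the interval was inside 1.5-fold for 8 of 10 SR proteins, 4 of 4 SR-related proteins, 1 of 4 CLK kinases and 14 of 20 hnRNPs. *Clk2* and *Hnrnph3* were the members with intervals beyond 2-fold. Without OGT-sufficient replicate 3 the interval lay within 2-fold for 38 members (76.6% of all genes), within 1.5-fold for 31 (44.1%) and within 1.25-fold for 11 (7.09%). The groups did not overlap in CPM for 3 members, *Hnrnpu* being higher and *Srsf1* and *Srsf9* lower in every OGT-deficient library. Among all genes, 5.72% were separated upwards and 7.48% downwards, so 1 and 2 of 38 members are near the background.

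Among the SR proteins, *Srsf1*, the founding member that promotes exon inclusion through purine-rich enhancers, lies at chr11:88047373-88053755 (GRCm38, plus strand). It was at 246, 282 and 280 CPM in the OGT-sufficient and at 234, 236 and 234 CPM in the OGT-deficient libraries. Its OGT-deficient libraries were almost equal and lay just under the lowest OGT-sufficient one. The log2 fold change was -0.20 (SE 0.11), the 95% interval of the fold ran from 0.737 to 1.03, and edgeR's quasi-likelihood test gave an adjusted p of 0.755. It overlaps the antisense gene *Gm11508*, and the counting's use of strand is not given in the sources used here. *Srsf9*, another enhancer-binding member, was at 46.3, 48.0 and 42.5 CPM against 30.3, 41.6 and 39.7 CPM. Here too the groups lay close without overlapping, and OGT-deficient replicate 1 was the lowest. Its log2 fold change was -0.29 (SE 0.15), and -0.33 without OGT-sufficient replicate 3, where edgeR's quasi-likelihood test gave an adjusted p of 0.755.

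The SR proteins that also carry mRNA out of the nucleus, *Srsf3* and *Srsf7*, had overlapping groups. *Srsf3* was at 60.4, 56.6 and 82.1 CPM in OGT-sufficient and at 67.8, 57.4 and 70.7 CPM in OGT-deficient libraries. *Srsf7* was at 84.4, 85.0 and 136 CPM against 108, 80.9 and 92.4 CPM. Both had their highest value in OGT-sufficient replicate 3. Their log2 fold changes were -0.02 (SE 0.17) and -0.12 (SE 0.20), and 0.17 and 0.15 without that library.

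*Srsf5* and *Srsf6*, paralogs whose products bind exonic enhancers, were also highest in OGT-sufficient replicate 3. *Srsf5* was at 95.8, 102 and 145 CPM against 102, 99.8 and 115 CPM. *Srsf6* was at 160, 170 and 196 CPM against 185, 151 and 181 CPM. The log2 fold changes were -0.11 (SE 0.17) and -0.02 (SE 0.13), so both differences were smaller than their errors. *Srsf2*, a speckle protein that also helps release paused RNA polymerase, was at 71.6, 97.9 and 92.5 CPM against 86.8, 76.6 and 97.6 CPM. Its means were 87.4 ± 13.9 and 87.0 ± 10.5 CPM (SD, n = 3 each), and it shares 39.1% of its coding 50-base windows with the overlapping genes *Mettl23* and *Mfsd11*.

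*Srsf4*, the least abundant tested SR protein per length, was at 21, 19.9 and 23.9 CPM against 22.1, 20.2 and 24.3 CPM, and it gave the only SR estimate above 0, a log2 fold change of 0.04 (SE 0.16). *Srsf10*, which represses splicing when it loses its phosphates, had a log2 fold change of -0.30 (SE 0.17) that was -0.18 without OGT-sufficient replicate 3. *Srsf11*, a partner of the U2AF complex, had -0.15 (SE 0.14) and 0.01 without it. Over the 10 tested SR proteins the median log2 fold change was -0.12, and it was 0.06, with 7 of 10 estimates above 0, without OGT-sufficient replicate 3. Summed over the 11 SR proteins, the level averaged 1130 ± 149 CPM with OGT and 1037 ± 59.7 CPM without (SD, n = 3 each).

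The SR-related proteins assist SR proteins at enhancers or build the speckle. *Srrm2*, the main scaffold of nuclear speckles, had the highest mean CPM of the members over the 6 libraries, at 998, 1080 and 1360 CPM against 927, 936 and 1070 CPM. *Srrm1*, a coactivator that bridges enhancers and the splice sites, was at 261, 248 and 284 CPM against 248, 231 and 256 CPM. Both were highest in OGT-sufficient replicate 3, and the groups overlapped. Their log2 fold changes were -0.23 (SE 0.15) and -0.11 (SE 0.11), and -0.08 and -0.05 without that library. The transformer-2 pair, which activates exons rich in GAA, was less abundant. *Tra2a* was at 71.1, 68.7 and 86.8 CPM against 74.0, 79.4 and 75.7 CPM, and *Tra2b* at 68.1, 73.8 and 95.7 CPM against 77.6, 65.3 and 72.3 CPM. The estimates of 0.02 (SE 0.13) and -0.14 (SE 0.15) were within their errors. All 4 genes of the family were highest in OGT-sufficient replicate 3.

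The 4 CLK kinases belong to the LAMMER kinases, a group named after a motif of the kinase domain. The coding bases around it are shown because the 4 genes differ in sequence even in this conserved part. Capitals mark bases that differ from *Clk1*, and all 4 stretches were taken from the coding part of GENCODE M21 transcripts (GRCm38).
Clk1: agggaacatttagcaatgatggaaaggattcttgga
Clk2: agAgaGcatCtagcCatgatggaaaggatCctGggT
Clk3: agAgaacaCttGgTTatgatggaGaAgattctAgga
Clk4: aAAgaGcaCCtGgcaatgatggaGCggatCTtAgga
They lie at chr1:58412979-58413014 on the minus strand, chr3:89175404-89175439 on the plus strand, chr9:57752147-57752182 on the minus strand and chr11:51280370-51280405 on the plus strand. Over these 36 bases *Clk2* differs from *Clk1* at 7 positions, *Clk3* at 8 and *Clk4* at 11. The stretch of *Clk3* does not encode the exact motif. The transcripts of *Clk1*, *Clk2* and *Clk4* shared no window of 50 bases with a transcript of another annotated gene. *Clk3* shared 19.0% of the windows of its transcript and 12.2% of its coding windows. Of its 466 shared windows, 447 were shared with *Edc3*, which overlaps it on the other strand.

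The CLK kinases varied more within the OGT-sufficient group than between the genotypes, with a summed level of 408 ± 129 CPM against 378 ± 19.5 CPM (SD, n = 3 each). *Clk1* was at 237, 222 and 371 CPM in OGT-sufficient and at 265, 254 and 279 CPM in OGT-deficient libraries. *Clk4*, its closest paralog, was at 55.4, 46.1 and 102 CPM against 61.4, 56.2 and 64.2 CPM. In both genes OGT-sufficient replicate 3 was the highest of the 6 libraries and OGT-sufficient replicates 1 and 2 were below all OGT-deficient libraries. The log2 fold changes were -0.06 (SE 0.19) for *Clk1* and -0.16 (SE 0.26) for *Clk4*. Without OGT-sufficient replicate 3 they were of the opposite sign, 0.22 (SE 0.10) and 0.26 (SE 0.14), with adjusted p of 0.748 and 0.797 in edgeR's quasi-likelihood test. *Clk3* was at 43.4, 52.3 and 74.7 CPM against 45, 45.1 and 49.3 CPM. *Clk2*, the least abundant kinase with 15 to 36 counts per library, was at 4.52, 6.17 and 9.44 CPM against 4.88, 3.78 and 5.22 CPM. The log2 fold changes of -0.29 (SE 0.19) for *Clk3* and -0.54 (SE 0.34) for *Clk2* moved to -0.03 and -0.20 without OGT-sufficient replicate 3. *Clk2* thus had the largest estimate of all members, with an interval of the fold from 0.407 to 1.17. The 3 OGT-deficient libraries were closer together. Their summed CLK level was 376, 359 and 398 CPM, against 340, 326 and 557 CPM in the OGT-sufficient ones.

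**Figure D2:**
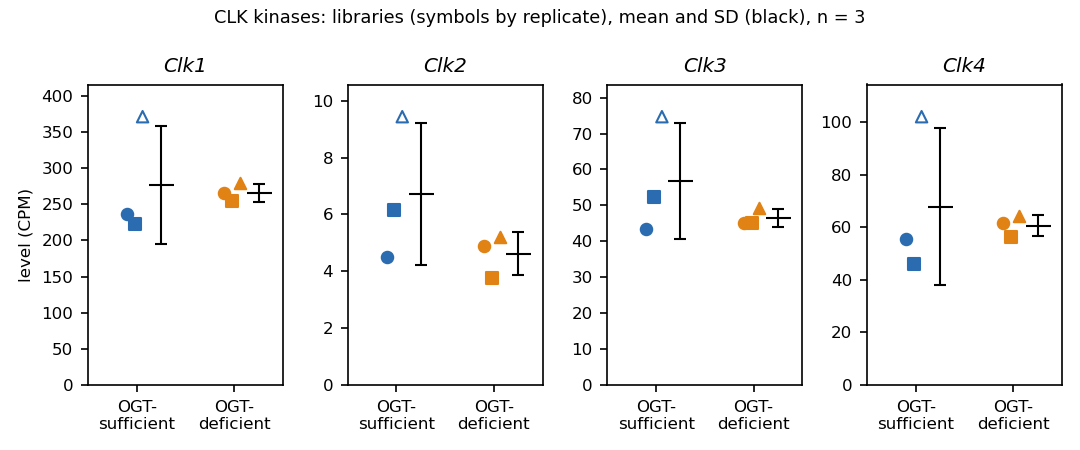
Level of Clk1, Clk2, Clk3 and Clk4 in CPM in each of the 6 libraries, with the mean and SD of the 3 libraries of a group in black. OGT-sufficient replicate 3 (open triangle) is the highest library for each kinase.

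Among the hnRNPs that bind exonic and intronic silencers, *Hnrnpa2b1* was the most abundant member per length. It was at 654, 605 and 775 CPM in OGT-sufficient and at 674, 614 and 592 CPM in OGT-deficient libraries, a log2 fold change of -0.11 (SE 0.13). *Hnrnpa1*, the best known of these repressors, was low, at 6.39, 8.32 and 12.3 CPM against 9.25, 6.55 and 6.79 CPM. The groups overlapped in both genes, and OGT-sufficient replicate 3 was the highest library in both. *Hnrnpa3*, a close relative, gave the lowest p of all members. It was at 24.7, 17.4 and 24.9 CPM against 31.9, 33.0 and 24.5 CPM, a log2 fold change of 0.41 (SE 0.19) with an adjusted p of 0.713 in edgeR's quasi-likelihood test. OGT-deficient replicates 1 and 2 lay above all OGT-sufficient libraries, and replicate 3 lay among them. Without OGT-sufficient replicate 3 it was 0.51 (SE 0.21), with an adjusted p of 0.712 in edgeR's quasi-likelihood test. *Hnrnpa0*, a relative without introns in its coding part, had 0.17 (SE 0.15).

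*Hnrnpu*, the nuclear scaffold protein that ties RNA to chromatin, was at 914, 900 and 870 CPM in OGT-sufficient and at 984, 948 and 924 CPM in OGT-deficient libraries. The lowest OGT-deficient library was above the highest OGT-sufficient one, yet the difference was small, with a log2 fold change of 0.09 (SE 0.11) and an interval of the fold from 0.898 to 1.26. Its relatives *Hnrnpul1* and *Hnrnpul2* had 0.11 (SE 0.10) and -0.05 (SE 0.10). *Hnrnpu* overlaps *Cox20* on the other strand, so reads of both could be mixed there. Its 1 protein-coding transcript model shared no 50-base window with another annotated gene.

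*Hnrnpl* and *Hnrnpll*, which bind CA-rich RNA and skip the variable exons of the phosphatase CD45 in T cells, had estimates of opposite sign. *Hnrnpl* was at 193, 179 and 168 CPM against 208, 183 and 195 CPM, a log2 fold change of 0.12 (SE 0.11). *Hnrnpll* was at 48.7, 50.4 and 43.5 CPM against 35.2, 36.8 and 45.9 CPM, a log2 fold change of -0.27 (SE 0.15), with an adjusted p of 0.755 in edgeR's quasi-likelihood test. For *Hnrnpll*, OGT-deficient replicate 3 lay among the OGT-sufficient libraries, and neither gene passed the test. Without OGT-sufficient replicate 3 the values were 0.08 and -0.33.

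*Hnrnpd*, also called AUF1, which binds AU-rich elements in unstable mRNAs, was at 195, 159 and 197 CPM against 234, 206 and 192 CPM. Its OGT-deficient replicates 1 and 2 were the highest libraries, and the log2 fold change was 0.20 (SE 0.13). Its relatives *Hnrnpab* and *Hnrnpdl* had 0.13 (SE 0.12) and -0.09 (SE 0.25). *Hnrnpdl* was at 89.4, 94.2 and 179 CPM against 110, 101 and 129 CPM. Every OGT-deficient library thus lay above OGT-sufficient replicates 1 and 2 and below replicate 3. Without replicate 3 its log2 fold change was 0.31 (SE 0.13), with an adjusted p of 0.712 in edgeR's quasi-likelihood test.

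The G-run binding proteins were uneven. *Hnrnph1* was at 200, 204 and 352 CPM against 186, 178 and 202 CPM, a log2 fold change of -0.42 (SE 0.21) that was -0.09 without OGT-sufficient replicate 3. *Hnrnph3*, the least abundant hnRNP per length, was at 6.92, 6.98 and 11.8 CPM against 7.71, 5.29 and 6.79 CPM, a log2 fold change of -0.38 (SE 0.30) that was -0.07 without OGT-sufficient replicate 3. Both were highest in OGT-sufficient replicate 3. *Hnrnph2*, by contrast, was the most even member of all. It was at 45.5, 46.9 and 46.4 CPM against 45.5, 46.6 and 43.3 CPM, so the highest library was 1.08 times the lowest. *Hnrnpf*, of the same kind, had a log2 fold change of 0.07 (SE 0.14). The remaining hnRNPs were *Hnrnpc*, which binds uridine tracts, *Hnrnpk*, which binds C-rich RNA, *Hnrnpm* and *Hnrnpr*, with log2 fold changes of 0.08, -0.03, -0.12 and -0.11 and SEs of at most 0.13. Over the 20 hnRNPs the median log2 fold change was -0.03, or 0.02 without OGT-sufficient replicate 3, and their summed level was 4544 ± 131 CPM with OGT and 4539 ± 217 CPM without (SD, n = 3 each).

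The clearest pattern among the members followed a library and not the genotype. OGT-sufficient replicate 3 was the highest of the 6 libraries for 20 of the 38 tested members, where it was the highest for 27.4% of all genes. These 20 were all 4 CLK kinases, all 4 SR-related proteins, 6 of 10 SR proteins and 6 of 20 hnRNPs. That library was the lowest for 7 of the 38, all of them hnRNPs, where it was the lowest for 23.8% of all genes. In 9 members it exceeded the mean of OGT-sufficient replicates 1 and 2 by more than 1.5-fold (10.1% of all genes), and in 0 it was lower by as much (11.3% of all genes). The 9 were *Clk4* at 2.00-fold, *Hnrnpdl* at 1.95, *Clk2* at 1.77, *Hnrnph1* at 1.74, *Hnrnph3* at 1.70, *Hnrnpa1* at 1.68, *Clk1* at 1.62, *Srsf7* at 1.60 and *Clk3* at 1.56. *Ogt* itself was 1.57-fold higher there. Each of the other 5 libraries was compared in the same way with the mean of the other two of its group, which for OGT-sufficient replicates 1 and 2 includes replicate 3. In these 5, no member was more than 1.5-fold above that mean, against 3.6% to 7.63% of all genes. *Clk2*, *Hnrnpa1* and *Hnrnpdl* were more than 1.5-fold below it in OGT-sufficient replicate 1 (5.85% of all genes) and *Clk4* in OGT-sufficient replicate 2 (9.09%), and no member was in the OGT-deficient libraries. These folds describe 1 library and have no test. The library's high neutrophil, B-cell, erythroid and receptor gene counts and its lower Treg marker sum moved with them, and their part in the result was not tested.

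**Figure D3:**
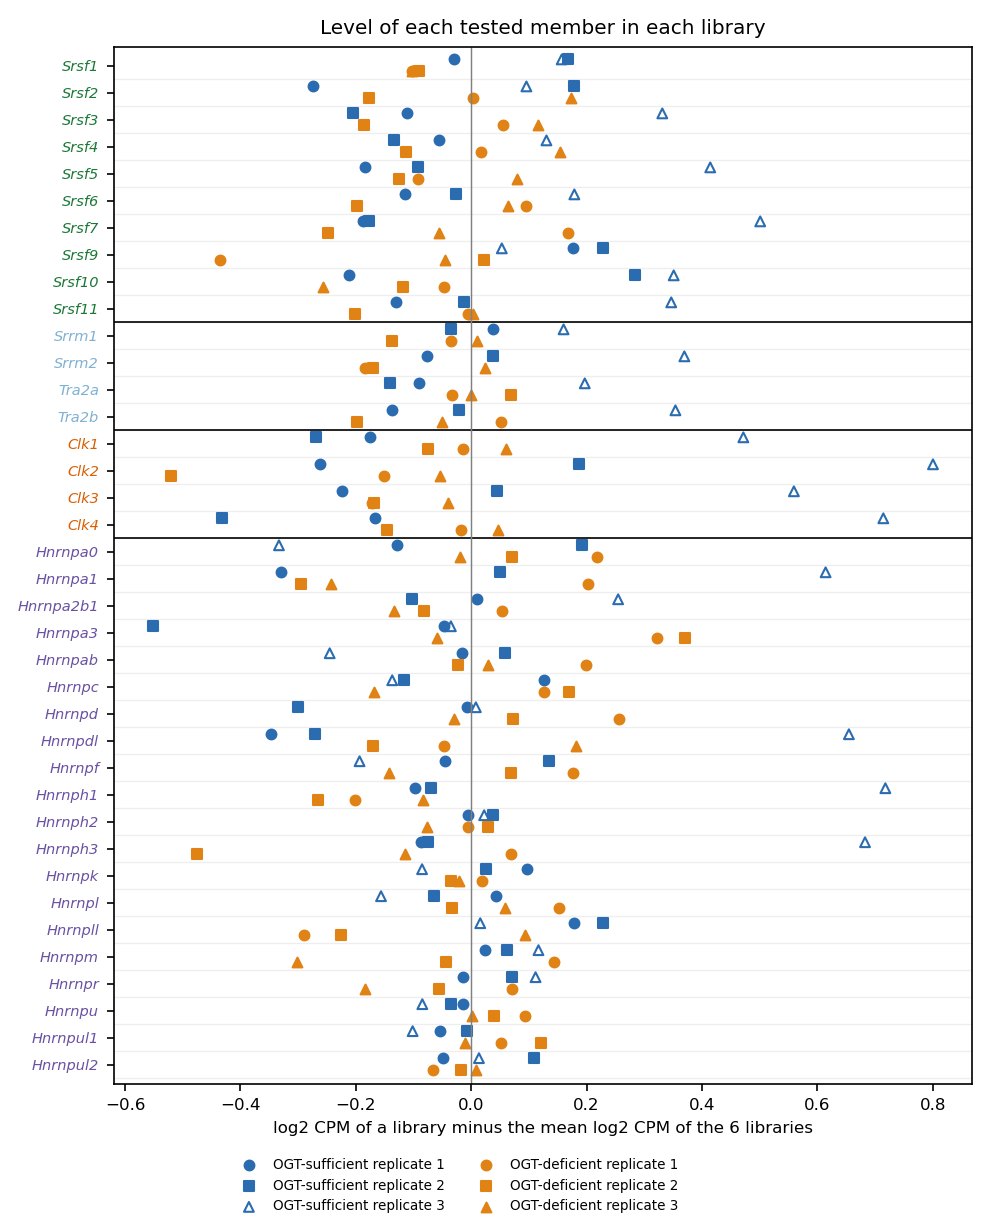
Level of each tested member in each of the 6 libraries, as log2 CPM minus the member's mean log2 CPM over the libraries, with label colours by family. OGT-sufficient replicate 3 (open triangle) lies to the right for all 4 CLK kinases, all 4 SR-related proteins, Hnrnpdl, Hnrnph1 and Hnrnph3, and to the left for Hnrnpa0 and Hnrnpab.

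The same ratio was taken over the rest of the splicing machinery. OGT-sufficient replicate 3 exceeded the mean of replicates 1 and 2 by more than 1.5-fold in 10 of 120 tested genes of the other splicing lists (8.33%), close to the 10.1% of all genes. It was lower by as much in 3 of the 120 (2.5%), against 11.3% of all genes. These were 1 gene each in the lists of U1 snRNP, U2 snRNP and the Sm core. The 4 CLK kinases had a median of 1.69, the SR-related proteins 1.28, the SR proteins 1.21 and the hnRNPs 0.995, where all genes had 0.984. All 120 genes of the other lists together had a median of 1.09. The tri-snRNP genes had a median of 0.963 with none of 12 above 1.5-fold, and the Sm core 0.938 with none of 7. Genes of U1 snRNP and its partners had 1.33, with *Luc7l*, *Prpf39* and *Prpf40b* of 11 above 1.5-fold. The median was 1.20 for SR protein kinases and import genes, 1.17 for the cold-inducible proteins, 1.16 for nonsense-mediated decay, 1.14 for other splicing regulators, 1.10 for the exon junction complex and 0.911 for U2 snRNP, with 0 to 3 genes of each above 1.5-fold.

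Levels between genes were compared per kb of transcript, as CPM per kb averaged over the 6 libraries. *Hnrnpa2b1* led at 393 CPM per kb, followed by *Hnrnpab* at 224, *Hnrnpm* at 169, *Clk1* at 151, *Srrm2* at 122 and *Hnrnpu* at 121. *Hnrnpm* overlaps *March2* on the same strand and shares 28.8% of the 50-base windows of its transcript with it, outside the coding part. *Hnrnpab* overlaps *Phykpl* on the other strand and shares 10.6% of the windows of its transcript with it. Reads in both overlaps could be lost or mixed. Among SR proteins *Srsf7* was at 93.9 CPM per kb, *Srsf1* at 76.7 and *Srsf5* at 73.4, and *Srsf4* was the lowest tested at 9.69. Which SR protein was the highest depends on the transcript length, taken as 1040 bases for *Srsf7* and 3285 for *Srsf1*, the median of their models. With the length of the transcript that has the longest coding part, 2288 and 1209 bases, *Srsf7* was at 42.7 and *Srsf1* at 208 CPM per kb, *Hnrnpm* fell from 169 to 109, and *Srsf4* and *Hnrnph3* were still the lowest tested of their families, at 9.69 and 3.42. Among kinases the order was *Clk1* at 151, *Clk4* at 32.9, *Clk3* at 20.7 and *Clk2* at 2.66 CPM per kb. The lowest tested hnRNP was *Hnrnph3* at 3.46, next to *Hnrnpa1* at 4.31, and *Srsf12* was at 0.926 CPM per kb. The median member was at 46.5.

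Members that share sequence with pseudogenes or overlapping genes are uncertain in this order, since reads that match several genes may be lost or split. For each member, the share of 50-base windows of its coding sequence that occur unchanged in a transcript of another annotated gene was counted. It was at least 50% for 10 members, from 55.1% in *Hnrnph2* to 97.7% in *Hnrnpa3*. The others of the 10 were *Srsf3*, *Srsf4*, *Srsf5*, *Srsf10*, *Tra2b*, *Hnrnpa1*, *Hnrnpf* and *Hnrnpk*. *Srsf4* shared windows with no pseudogene, only with *Gm12992*, which overlaps it on the other strand. The median level of the 10 was 20.8 CPM per kb (range 4.31 to 78.9), against 59.3 (range 0.926 to 393) for the other 29 members. *Hnrnpa3* shared windows with 46 other genes, 42 of them pseudogenes, so its counts are uncertain in every library. *Hnrnpa1* shared 80.8% of its coding windows with 19 pseudogenes. Its copy *Gm10052*, a processed pseudogene of 960 bases at chr9:123689233-123690192 (GRCm38, minus strand), matches *Hnrnpa1* without a differing base over its whole length, in 2 segments. The first coding bases of *Hnrnpa1* (chr15:103240514-103241124, plus strand, spliced) are shown as a stretch longer than a read, found unchanged in both genes.
Hnrnpa1: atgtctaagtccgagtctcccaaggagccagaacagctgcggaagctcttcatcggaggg
How the counting treated such reads is not given in the sources used here, and its part in the low level of *Hnrnpa1* was not tested.

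**Figure D4:**
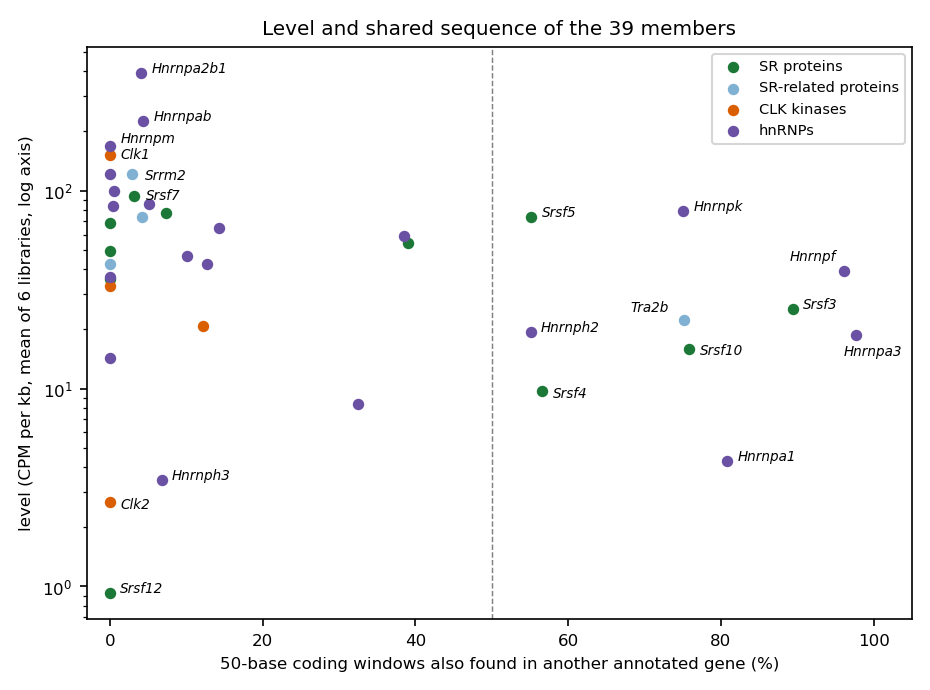
Level of the 39 members in CPM per kb (mean of the 6 libraries, log axis) against the percentage of 50-base windows of the coding sequence that also occur in another annotated gene, with the 50% mark dashed and colours by family. The 10 members to the right of the mark lie between 4.31 and 78.9 CPM per kb.

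Many members have annotated transcripts that do not encode the full protein. In GENCODE M21, 30 of the 38 tested members (78.9%) have a model with a retained intron, against 61.7% of 10520 protein-coding genes tested, and 27 (71.1%) have a model marked for nonsense-mediated decay, against 30.4%. *Clk1* has 13 models, of which 7 retain an intron and 2 are marked for decay, and *Clk4* has 14, of which 7 and 3. *Hnrnpk*, with 34 models, has 13 with a retained intron. Of the 9 members more than 1.5-fold higher in OGT-sufficient replicate 3, 7 have a retained-intron model. That is 7 of the 30 members with such a model (23.3%), beside 2 of the 8 without (25%). Over all protein-coding genes tested, 9.64% of those with such a model and 9.61% of those without exceeded 1.5-fold in that library. Those lower by as much were 8.01% with such a model and 15.3% without, and the median folds were 1.01 and 0.934. The counts add up all models of a gene, and a shift between them was not measured.

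The exons that carry a premature stop are shown for the members best known for them, as the bases from within the exon up to its first in-frame stop, which is in capitals. None of the exons is part of a protein-coding model.
Srsf3: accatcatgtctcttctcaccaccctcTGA
Tra2b: aatgagtatttgaagctcaggaataagTGA
Tra2a: aaaaaattgaacagaagattggtcagaTAG
The exons are chr17:29039454-29039909 (456 bases, plus strand) in *Srsf3*, chr16:22258986-22259261 (276 bases, minus strand) in *Tra2b* and chr6:49252803-49253108 (306 bases, minus strand) in *Tra2a*. The gene totals of the 3, given above, are the sum of transcripts with and without them.

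The rest of the splicing pathway gave few differences. Of 121 genes in 9 lists, 120 were tested, all but *Rbfox2*. At an unadjusted p under 0.05, 0 were higher (3.09% of all genes) and 5 lower (4.01% of all genes), and 0 passed an FDR of 0.1 in edgeR's quasi-likelihood test. The 5 were spread over 3 lists: 1 of 10 SR protein kinases and import genes, 2 of 11 genes of U1 snRNP and 5 prime splice site recognition, and 2 of 10 genes of nonsense-mediated decay. No gene passed in the lists of U2 snRNP (19 genes), tri-snRNP (12), Sm core (7), exon junction complex (9), other splicing regulators (40) and cold-inducible RNA-binding proteins (2). *Luc7l2*, a U1 snRNP partner that helps select the 5 prime splice site, was at 201, 208 and 231 CPM in OGT-sufficient and at 169, 153 and 175 CPM in OGT-deficient libraries. The groups did not overlap. Its log2 fold change was -0.37 (SE 0.11), and -0.30 without OGT-sufficient replicate 3. The adjusted p was 0.531 in edgeR's quasi-likelihood test and lay between 0.52 and 0.997 in the other settings. The other 4, named after their values were seen, were *Srpk2*, a cytoplasmic SR protein kinase, at -0.27, *Tial1*, a U-rich binding protein that recruits U1, at -0.39, and the decay factors *Upf2* at -0.31 and *Upf3a* at -0.37. Without OGT-sufficient replicate 3, *Luc7l2* and *Upf3a* of these 5 had an unadjusted p under 0.05, and the count over the lists was 3 (6.92% of all genes). It was 2 without OGT-deficient replicate 1 (7.18% of all genes), and 0 without OGT-deficient replicate 2 (4.13%), where *Luc7l2* had a log2 fold change of -0.28 with an adjusted p of 0.997 in edgeR's quasi-likelihood test.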

How the data were processed

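RNA of 6 libraries of sorted Treg cells, 3 a genotype, was sequenced as paired-end reads. Per the labels, the submitters' processing notes name Trimmomatic 0.33, FastQC, Bowtie2 2.2.4.0, featureCounts, edgeR and the build mm10, while the paper names Cuffquant. The annotation, the strand setting and the treatment of reads matching several genes are not given in the sources used here. The authors deposited whole-number counts per gene symbol, not normalized. The p-value, FDR and fold change of their own test were not used. Ribosomal *Rn45s* took 24.2% of the total in OGT-sufficient replicate 3 and 30.6% to 37.1% in the other libraries.

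Counts were tested with edgeR 4.0.16 in R 4.3.3: quasi-likelihood test, TMM scaling, the low-count filter with a minimum of 10, no replicate block, Benjamini-Hochberg adjustment over 10949 genes. The SE is the absolute log2 fold change divided by the square root of F. Replicates differed beyond counting noise (chi-square per df 3.31 to 22). A floor of 3 counts is 0.756 to 0.805 CPM. Python 3.11.15 matched all 39 members to GENCODE M21 (GRCm38), the source of positions, models, sequences and lengths. The length for levels per kb is the median over protein-coding models close to the longest coding part. Shared windows are exact 50-base matches. Alternatives were DESeq2 1.42.0, edgeR's exact test, other scalings and filters, a replicate block and leaving out each library. Library size without *Rn45s*, intervals without OGT-sufficient replicate 3, a second length, and all alternatives for the pathway lists, were chosen after seeing the data.

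The members and lists were chosen with earlier results of these data known. All members are named. Values in every library are given for members at an unadjusted p under 0.05 or without overlap between groups, the CLK kinases, the SR-related proteins, *Hnrnpll*, *Srsf1*, *Srsf2*, *Srsf3*, *Srsf5*, *Srsf6*, *Srsf7*, *Hnrnpa1*, *Hnrnpa2b1*, *Hnrnpl*, *Hnrnpu*, *Hnrnpd*, and the highest and lowest tested SR protein and hnRNP per kb by that length. Values of *Hnrnpa3*, *Hnrnpdl*, *Hnrnph1* and *Hnrnph2* were added after they were seen. Of the pathway lists, genes at an unadjusted p under 0.01 are named, and *Ogt*.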

Additional observations from a re-analysis of the deposited data

How the results depend on the processing

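No member passed an FDR of 0.1 in any of the 14 alternatives, where the lowest adjusted p was 0.616, and no pathway gene did. Members at an unadjusted p under 0.05 numbered 0 as reported and 2 without a low-count filter (*Hnrnpa3* and *Hnrnph1*, against 6.13% of all genes), and it ran from 0 to 4 when a library was left out. The median log2 fold change of the members was -0.10, between -0.16 and -0.06 under other tools, scalings and filters and between -0.14 and 0.03 with a library left out. The deviations of same-numbered libraries from their group means had correlations of -0.281, 0.00726 and -0.118 for replicates 1, 2 and 3. These values cannot show whether libraries were processed in pairs. The replicate block gave a median of -0.07, 0 members at an unadjusted p under 0.05 and a log2 fold change of -1.19 for *Ogt*. *Ogt* passed an FDR of 0.1 with DESeq2 (-1.18), the exact test (-1.21) and no filter (-1.15), and lay between -1.31 and -0.94 with a library left out. Of the pathway genes, 5 had an unadjusted p under 0.05 (7.1% of all genes). There was 1 with DESeq2 (2.55%). The exact test (6.38%), library size only (5.91%), no filter (6.13%) and the replicate block (6.2%) gave 3 each. DESeq2's size factors gave 4 (7.04%). A minimum of 10 counts in every sample (7.23%) and library size without *Rn45s* (7.16%) gave 5 each. With a library left out there were 0 to 7 (4.13% to 7.91% of all genes). All genes at an FDR of 0.1 numbered 3 as reported, while DESeq2 gave 40, the exact test 80, testing without a filter 131 and the replicate block 0.

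The sign of 20 members held in all alternatives, and none of the 18 that turned had a reported log2 fold change above 0.26 in size. Outside the fits with a library left out, *Srsf2* turned to 0.01 with DESeq2, 0.01 with DESeq2's size factors and 0.04 without a filter. Without a filter, *Srsf3* turned to 0.03, *Srsf6* to 0.03, *Clk1* to 0.000278, *Hnrnph2* to 0.01 and *Hnrnpk* to 0.02. With library size only, *Srsf4* turned to -0.01 and *Tra2a* to -0.04. With a library left out, *Srsf2* ranged from -0.09 to 0.11, *Srsf3* from -0.12 to 0.17, *Srsf4* from -0.01 to 0.14, *Srsf5* from -0.19 to 0.10, *Srsf6* from -0.07 to 0.10, *Srsf7* from -0.23 to 0.15 and *Srsf11* from -0.20 to 0.01. *Tra2a* ranged from -0.04 to 0.14, *Tra2b* from -0.20 to 0.03, *Clk1* from -0.19 to 0.22 and *Clk4* from -0.37 to 0.26. *Hnrnpa1* ranged from -0.43 to 0.04, *Hnrnpa2b1* from -0.19 to 0.00307, *Hnrnpdl* from -0.24 to 0.31, *Hnrnpf* from -0.00334 to 0.19, *Hnrnph2* from -0.04 to 0.03, *Hnrnpk* from -0.07 to 0.05 and *Hnrnpm* from -0.23 to 0.02. Of the 18, 12 turned without OGT-sufficient replicate 3. Why the others turned was not tested. At 3 libraries a group the median SE of a member was 0.15 on the log2 scale. *Srsf2*, with that SE, had a 95% interval from -0.35 to 0.34.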
